A study of Mus musculus with 9 samples.

Results

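The results below concern *Slpi*, *Serpine2*, *Serpinf1*, *Serpinh1*, *Plau*, *Plaur* and *Plat*, genes of secreted protease inhibitors and of the plasminogen activator system. They were chosen by name, for their ties to anticoagulant protease inhibition and plasminogen activation, and are 7 of the 14108 genes counted. Earlier results of these data were known when they were chosen. RNA-seq was performed on GFP+ cells sorted from 9 mouse mammary tumours, 3 from each model (HR1, LM1 and LM9). HR1 is a non-metastatic mammary cancer line that came from tumours of mice with a mutant *PIK3CA* transgene and represents *Nfib* low-expression tumours. LM1 and LM9 are *Nfib* high-expression lines, and each was derived from a lung metastasis that arose from HR1 cells carrying a *piggyBac* transposon, so that each model is 1 derived line. In all 3 models 250000 cells were placed in the mammary fat pad of female NOD/SCID mice (strain NOD.CB17-Prkcd<scid>/J) aged 4 to 8 weeks, and tumours were taken before they reached 1500 mm3. These hosts lack functional lymphocytes but keep macrophages and neutrophils. The labels number the tumours of a model from 1 to 3 without saying whether each came from its own animal, so the p-values measure only the spread between these tumours.

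Plasminogen is cut to plasmin, which dissolves fibrin and degrades matrix, by the urokinase-type activator encoded by *Plau* and the tissue-type activator encoded by *Plat*. The receptor encoded by *Plaur* holds urokinase at the cell surface, and serpins such as protease nexin-1, the product of *Serpine2*, trap activators, plasmin and thrombin. *Slpi* encodes a small secreted inhibitor of neutrophil elastase and cathepsin G. SLPI and SERPINE2 have been described as anticoagulant proteins made by mammary tumour cells that line blood-filled channels themselves, a behaviour called vascular mimicry. The products of *Serpinf1* (PEDF, an inhibitor of vessel growth) and *Serpinh1* (HSP47, a chaperone of collagen in the endoplasmic reticulum) are serpins by fold that do not inhibit proteases.

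Among these genes *Slpi* differed most between the pooled LM tumours and HR1, and *Serpine2* differed most between LM9 and LM1, and the 250 bases before their RefSeq start sites are shown because these upstream regions differ widely in base composition and motifs. The sequences are from RefSeq (build GRCm38.p6), written 5′ to 3′ in the sense of the gene, with capitals for matches to the motifs searched on both strands.
*Slpi*, chr2:164356508-164356757, minus strand: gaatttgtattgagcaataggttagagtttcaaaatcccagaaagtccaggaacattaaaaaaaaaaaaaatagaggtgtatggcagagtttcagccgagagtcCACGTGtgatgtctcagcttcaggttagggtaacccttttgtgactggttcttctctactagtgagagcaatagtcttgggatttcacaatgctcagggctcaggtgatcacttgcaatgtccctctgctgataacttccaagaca
*Serpine2*, chr1:79858666-79858915, minus strand: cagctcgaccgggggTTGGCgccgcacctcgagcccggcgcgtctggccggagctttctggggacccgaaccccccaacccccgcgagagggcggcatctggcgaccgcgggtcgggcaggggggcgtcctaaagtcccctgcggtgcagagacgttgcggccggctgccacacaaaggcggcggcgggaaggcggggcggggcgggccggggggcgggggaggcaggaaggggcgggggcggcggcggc
The *Slpi* window held 42.0% G and C bases and 1 CACGTG (E-box) match, 140 bases before the start, which contains the shorter ACGTG core of hypoxia response elements on each strand. The *Serpine2* window held 78.8% G and C bases and 1 match to TTGGC, a single arm of the motif bound by NFI proteins such as NFIB, 230 bases before the start. Of 32851 RefSeq windows of this length, 41.5% held TTGGC, 6.02% held CACGTG and 16.6% held ACGTG. The annotated gene extends further upstream than the start used here in both cases.

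Windows were found for 5 of the 7 genes, those of *Slpi*, *Serpine2*, *Serpinf1*, *Serpinh1* and *Plaur*. The *Serpinf1* window held 2 TTGGC matches and 1 ACGTG match, and the *Serpinh1* window held 1 of each. The *Plaur* window held 1 TGACTCA match, the AP-1 motif, 62 bases before the start, against 4.46% of all windows. No window of the 5 held the full NFI palindrome, which was present in 0.703% of all windows. These matches describe letters and not bound sites.

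Total counts lay between 32393958 and 46681945 per tumour, and levels are given as CPM, counts scaled to a common library size, after TMM normalization, always in the order of replicates 1, 2 and 3. At this depth 3 counts, taken as the floor, amount to at most 0.0997 CPM, and each of the 7 genes exceeded it in every tumour. HR1 replicate 1 stood apart from the other HR1 tumours. Its log2 levels correlated with theirs at 0.897 and 0.906, against 0.971 between HR1 replicates 2 and 3 and at least 0.991 within LM1 and within LM9. It also held 1343 CPM of *Nfib*, where HR1 replicates 2 and 3 held 23.9 and 18.3 CPM and the LM tumours 421 to 791 CPM, so it goes against the low-expression class of its model. A fit without it was therefore also made, and the plot of fold changes shows both fits for the 7 genes. That fit keeps only replicates 2 and 3 of HR1 and was chosen after the levels were seen. The epithelial markers *Epcam*, *Cdh1* and *Krt18* reached at most 4.49 CPM in any of the 9 tumours, near 0 for cells labelled as breast cancer, whereas the basal keratin *Krt14* reached 152 to 175 CPM in LM1 and 109 CPM in HR1 replicate 3, and *Krt5* reached 10.7 CPM in that HR1 tumour. These are 5 of 9 epithelial markers, the number analysed here.

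**Figure D1:**
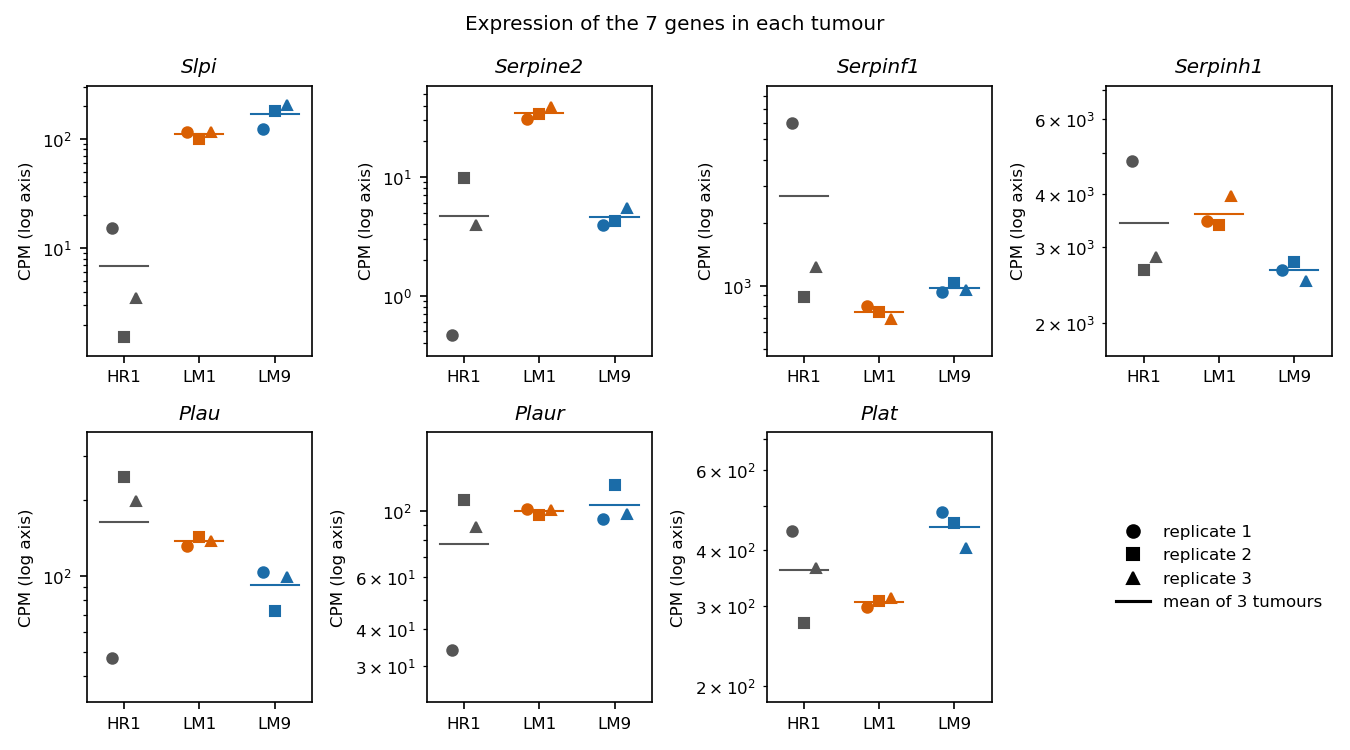
CPM on log axes of the 7 genes in each tumour of HR1 (grey), LM1 (orange) and LM9 (blue), with a bar at the mean of 3 tumours. *Slpi* lies at 100.1 CPM or above in all LM tumours and at 15.4 CPM or below in HR1, and *Serpine2* is high in LM1 alone. HR1 replicate 1 (grey circle) lies apart from the other HR1 tumours for *Slpi*, *Serpine2*, *Serpinf1*, *Serpinh1*, *Plau* and *Plaur*.

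The main comparison set the tumours of LM1 and LM9, the lines classed as *Nfib* high-expression, against those of HR1, the line classed as *Nfib* low-expression, although HR1 replicate 1 had the highest *Nfib* level of the 9 tumours. In LM1 and LM9 together versus HR1, *Slpi* rose 20.1-fold and *Serpinf1* fell 3.16-fold, and the activators, their receptor, *Serpine2* and *Serpinh1* did not pass the test. So 2 of the 7 genes were called at an adjusted p under 0.05 by edgeR, against 43.6% of the 14086 genes tested. All 7 passed the filter on low counts. In the fit without HR1 replicate 1 the calls were 3, namely *Slpi* and *Serpine2* higher and *Plau* lower, against 56.0% of the 14107 genes then tested. At these shares the number of calls among the 7 genes does not exceed that among genes at large. LM1 versus HR1 gave 3 calls of 7 (35.5% of all genes) and 5 without HR1 replicate 1 (52.8%). LM9 versus HR1 gave 1 call (42.3%) and 3 without that tumour (55.7%). The direct comparison of LM9 with LM1 gave 1 call (22.0%) and 5 without that tumour (45.5%). It gave 6 calls in a fit of the 6 LM tumours alone (56.3%), which leaves the spread between HR1 tumours out of the estimate. The comparisons of LM1 and of LM9 with HR1 share the HR1 tumours.

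**Figure D2:**
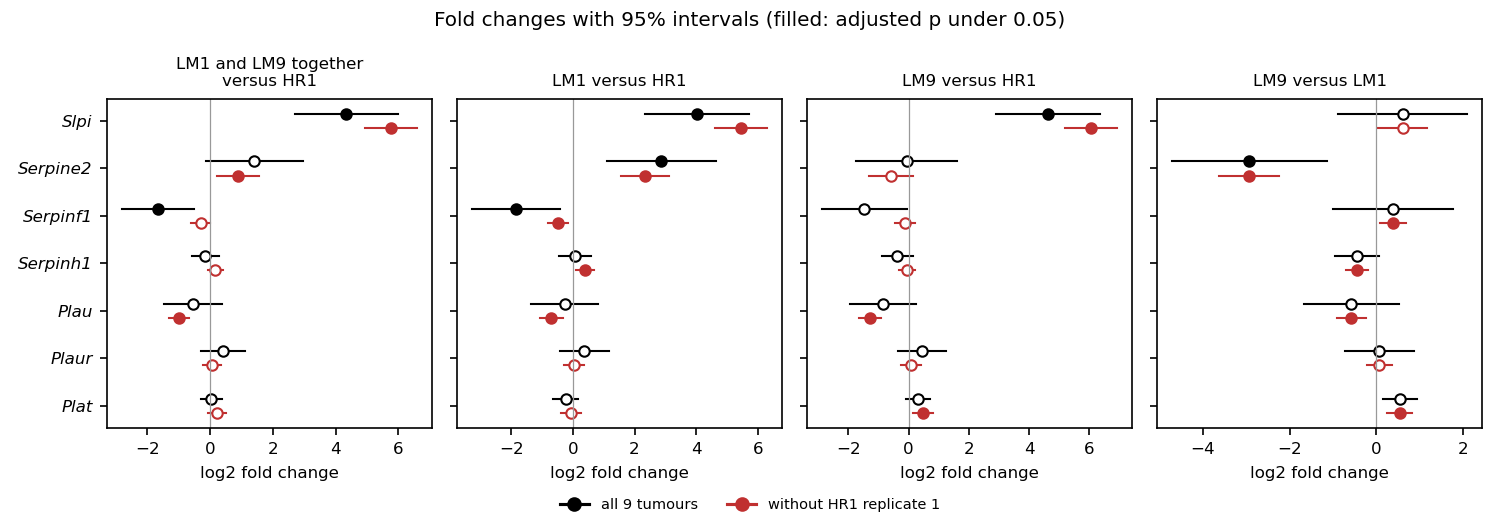
Log2 fold changes (points) from edgeR, with 95% intervals (lines) derived from its F statistic, for the 7 genes in the 4 comparisons. Fits are with all 9 tumours (black) and without HR1 replicate 1 (red), and filled points have an adjusted p under 0.05. *Slpi* lies right of 0 against HR1 in both fits, *Serpine2* lies right of 0 in LM1 versus HR1 and left of 0 in LM9 versus LM1, and the intervals narrow without HR1 replicate 1.

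*Slpi* (chr2:164354070-164389095, minus strand, GRCm38) was the gene of the set with the largest difference between LM and HR1 tumours. The HR1 tumours held 15.4, 1.55 and 3.53 CPM. The LM1 tumours held 116, 100.1 and 115 CPM. The LM9 tumours held 124, 179 and 203 CPM. Every LM tumour was above every HR1 tumour, and the 3 models did not overlap in the order HR1, LM1, LM9. The means were 6.84 ± 7.51, 110 ± 8.98 and 169 ± 40.3 CPM (s.d., n = 3 each).

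LM1 and LM9 together exceeded HR1 in *Slpi* by a log2 fold change of 4.33 (s.e. 0.72, adjusted p = 0.00189), and by 5.76 (s.e. 0.37, adjusted p = 3.7e-06) without HR1 replicate 1, the HR1 tumour with the highest level. Permuting the 6 LM and 3 HR1 tumours exactly (two-sided) returned p = 0.0238, which is the smallest this design allows. The rise was 4.03 (s.e. 0.74, adjusted p = 0.0041) in LM1 and 4.64 (s.e. 0.76, adjusted p = 0.00211) in LM9, or 5.46 and 6.06 without HR1 replicate 1. Leaving out any 1 tumour kept the call in each of these 3 comparisons. LM9 exceeded LM1 by 0.61, with a 95% interval from -0.87 to 2.10 and an adjusted p of 0.531, so the difference was not called with all 9 tumours. It was 0.60 (adjusted p = 0.0748) without HR1 replicate 1. In the fit of the 6 LM tumours alone it was 0.60 (s.e. 0.16, adjusted p = 0.00879). With 3 against 3 tumours the exact permutation test cannot go below 0.1, and it gave 0.1 there.

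Neutrophils and macrophages can also make SLPI. The 4 neutrophil markers analysed summed to 1.75 to 7.50 CPM in HR1, 4.28 to 4.55 CPM in LM1 and 2.79 to 5.92 CPM in LM9, and none of the 4 was called. The summed level of 10 leukocyte markers ranged from 174 to 722 CPM in HR1, from 146 to 157 CPM in LM1 and from 196 to 233 CPM in LM9, with 7 of 10 lower in LM tumours and none higher. From LM1 to LM9, where *Slpi* was also higher without overlap, the leukocyte sum was higher through *Cd68*, a macrophage marker, which was called higher (15.9 to 17.9 CPM in LM1, 107 to 138 CPM in LM9). For 8 of the 10 markers LM9 had the lower mean of the pair, without a call, and the median log2 fold change of the list was -0.54. The part of these cells in the *Slpi* differences was not tested. In sorted bulk RNA, fewer cells of a type and less RNA per cell cannot be told apart, which holds for all genes below. An annotated exon of *Slpi* overlaps a microRNA gene, *Mir7678*, by 1 base.

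Genes named for their likeness to *Slpi* across the 9 tumours were *Ttk* (Pearson r of log2(CPM + 1) = 0.991), *Khdrbs3* (0.986) and *Smpdl3b* (0.985). *Khdrbs3* had 8.11, 1.01 and 0.618 CPM in HR1 and 72.6 to 82.0 CPM in the LM tumours. As for the other likenesses below, these are descriptions over points that fall into 3 models.

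Among 16 relatives and targets of *Slpi*, 11 were analysed. Of these, 3 rose and 4 fell in LM1 and LM9 together versus HR1 (63.6% called, against 43.6% of all tested genes). The median log2 fold change of the 11 was 0.14, against -0.05 over all tested genes. In the fit without HR1 replicate 1 the median turned to -0.28, with 4 higher and 4 lower (72.7% called). *Wfdc3*, which like *Slpi* encodes a protein with WAP domains, had 1.83, 3.76 and 0.206 CPM in HR1, 13.5, 11.6 and 19.3 CPM in LM1, and 31.1, 24.0 and 25.9 CPM in LM9, a rise of 3.36 (adjusted p = 0.0059), or 4.33 without HR1 replicate 2. *Lcn2*, the siderophore-binding lipocalin, rose by 4.18 (adjusted p = 9.4e-04), from at most 1.64 CPM in HR1 to 28.1 to 33.9 CPM in LM1 and 6.46 to 11.9 CPM in LM9, or 4.93 without HR1 replicate 2. *Wfdc1*, another WAP gene, fell by 4.77 on the log2 scale (adjusted p = 0.0034), or -2.88 without HR1 replicate 1, and did not exceed 0.254 CPM in any LM tumour. Both directions therefore occurred among the WAP genes. *Grn*, named after its values were seen, whose progranulin product is protected from elastase by SLPI, rose in LM9, where it held 2259, 2083 and 2635 CPM, and held 837 to 1224 CPM across HR1 and LM1 (LM9 versus HR1: 1.14, adjusted p = 0.0015).

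*Serpine2* (chr1:79794197-79861180, minus strand) differed between the metastasis-derived models. The HR1 tumours held 0.465, 9.73 and 3.96 CPM, the first of which is 14 counts. The LM1 tumours held 31.1, 34.2 and 39.0 CPM. The LM9 tumours held 3.93, 4.26 and 5.49 CPM. All LM1 tumours were above all HR1 and LM9 tumours, while LM9 lay within the range of HR1. The means were 4.72 ± 4.68, 34.8 ± 3.99 and 4.56 ± 0.824 CPM in HR1, LM1 and LM9 (s.d., n = 3 each).

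In LM1 *Serpine2* was 7.32-fold higher than in HR1, a log2 fold change of 2.87 (s.e. 0.78, adjusted p = 0.0212), and 2.35 (adjusted p = 4.6e-04) without HR1 replicate 1. LM9 was 7.62-fold lower than LM1, a log2 fold change of -2.93 (s.e. 0.78, adjusted p = 0.0304), and -2.94 (adjusted p = 1.2e-04) without HR1 replicate 1. For LM9 versus HR1 the log2 fold change was -0.06 with a 95% interval from -1.74 to 1.62, and in the fit without HR1 replicate 1 it was -0.59 (adjusted p = 0.147). The LM1 call was lost without HR1 replicate 3 or any LM1 tumour (adjusted p = 0.0509 to 0.056) and with only the HR1 and LM1 tumours fitted (adjusted p = 0.0635), and the LM9 versus LM1 call was lost without any of the 6 LM tumours (adjusted p = 0.0653 to 0.115), although the fold changes stayed between 2.35 and 3.95 and between -3.09 and -2.83. The models pooled as LM gave 1.41 (s.e. 0.68, adjusted p = 0.124), a value that averages a high and a low model, and it was called without HR1 replicate 1 (0.88, adjusted p = 0.0316) or HR1 replicate 2 (2.49, adjusted p = 0.0222).

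The summed level of the epithelial markers was also higher in LM1 than in LM9, mostly through *Krt14*, while *Epcam* was higher in LM9 (0.622 to 0.698 CPM) than in LM1 (at most 0.273 CPM). The sum ranged from 156 to 180 CPM in LM1 and from 13.6 to 16.3 CPM in LM9. Within HR1 it was 7.55, 34.9 and 120.5 CPM and did not follow *Serpine2*, which was highest in replicate 2, and its part in the *Serpine2* difference was not tested. Of 8240 windows of 50 bases in the *Serpine2* exons 25 also occur in other genes, and none in the other 6 genes. The genes most like *Serpine2* were *Nol9* (r = 0.985), *Heatr1* (r = 0.985) and *Cpm* (r = 0.982). *Cpm* encodes a membrane carboxypeptidase and held 0.798, 6.78 and 2.06 CPM in HR1, 18.8 to 19.9 CPM in LM1 and 4.10 to 4.91 CPM in LM9.

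*Serpini1*, which encodes neuroserpin, an inhibitor of the tissue-type activator, held 1.97, 1.61 and 1.45 CPM in LM1 and 5.58, 5.77 and 6.91 CPM in LM9. Its LM9 level exceeded that of LM1 by 1.86 (adjusted p = 0.0442), the reverse of *Serpine2*, with the call lost without any 1 of the LM tumours (adjusted p = 0.101 to 0.143). *Plg* and *Serpinb2* were not analysed here.

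*Plau* (chr14:20836660-20843385, plus strand), the urokinase-type activator, was lowest in LM9 when HR1 replicate 1 is left aside. The HR1 tumours held 47.1, 248 and 199 CPM. The LM1 tumours held 131, 142 and 138 CPM. The LM9 tumours held 104, 72.5 and 99.2 CPM. HR1 replicate 1 was the lowest of all 9 tumours, HR1 replicates 2 and 3 were the highest, and LM9 lay below LM1 without overlap. With all 9 tumours no comparison of *Plau* was called. LM1 and LM9 together differed from HR1 by -0.55 (s.e. 0.41, adjusted p = 0.299), with a 95% interval from -1.48 to 0.37. With limma-voom quality weights it was called (-0.85, adjusted p = 0.0338).

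Without HR1 replicate 1 *Plau* fell by 0.99 on the log2 scale in LM1 and LM9 together (adjusted p = 3.1e-04), by 0.70 in LM1 (adjusted p = 0.00606) and by 1.28 in LM9 (adjusted p = 1.8e-04). LM9 was then lower than LM1 by 0.58 (adjusted p = 0.0112), the same size as with all 9 tumours (-0.58, adjusted p = 0.412). In the fit of the 6 LM tumours alone the difference between them was -0.59 (adjusted p = 0.00263). *Psd* (r = 0.983), *Dclk1* (r = 0.979) and *Trp53i11* (r = 0.971) were most like *Plau*.

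*Plat* (chr8:22757727-22782844, plus strand), the tissue-type activator, was higher in LM9 than in LM1 in every tumour. It held 440, 276 and 365 CPM in HR1, 299, 308 and 313 CPM in LM1, and 483, 457 and 404 CPM in LM9. HR1 overlapped both LM models, and LM1 and LM9 did not overlap. LM9 exceeded LM1 by 0.55 (s.e. 0.18), with an adjusted p of 0.0547 that misses the threshold, and by 0.54 without HR1 replicate 1 (adjusted p = 0.00738) or with the 6 LM tumours alone (adjusted p = 0.00106). Against HR1 *Plat* did not pass in LM1 (-0.23, adjusted p = 0.328) or LM9 (0.31, adjusted p = 0.178). Without HR1 replicate 1 LM9 exceeded HR1 by 0.49 (adjusted p = 0.0173). The activators thus had opposite orders of LM1 and LM9, with *Plau* higher in LM1 and *Plat* higher in LM9. *Sorbs3* (r = 0.978), *Cdkn1b* (r = 0.967) and *Loxl3* (r = 0.963) were most like *Plat*.

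*Plaur* (chr7:24462484-24475968, plus strand), the urokinase receptor, was not called in any comparison. It held 33.8, 109 and 88.7 CPM in HR1, 102, 97.2 and 101 CPM in LM1, and 93.9, 123 and 97.8 CPM in LM9. Only HR1 replicate 1 lay outside the range of 88.7 to 123 CPM. LM1 and LM9 together differed from HR1 by 0.41 (95% interval -0.30 to 1.11, adjusted p = 0.314), and by 0.06 (95% interval -0.24 to 0.35, adjusted p = 0.736) without HR1 replicate 1. *Plin2* (r = 0.989), *Lpcat4* (r = 0.983) and *Hsf1* (r = 0.979) were most like it, and for each of these HR1 replicate 1 was also the lowest tumour.

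*Serpinf1* (chr11:75409769-75422701, minus strand), which encodes PEDF, was lower in LM tumours largely through 1 HR1 tumour. The HR1 tumours held 5981, 880.0 and 1225 CPM. The LM1 tumours held 797, 750.1 and 695 CPM. The LM9 tumours held 935, 1031 and 956 CPM. All HR1 tumours were above all LM1 tumours, while HR1 replicate 2 was below every LM9 tumour. LM1 and LM9 together were lower by 1.66 on the log2 scale (s.e. 0.51, adjusted p = 0.0274). The difference was -0.30 (s.e. 0.13, adjusted p = 0.0801) without HR1 replicate 1, so the call was lost and the fold moved from 3.16 to 1.23. The call was also lost without any 1 of the 6 LM tumours (adjusted p = 0.054 to 0.0592), with limma-voom (-1.14, adjusted p = 0.0948) and with limma-voom quality weights (-0.44, adjusted p = 0.214).

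In LM1 *Serpinf1* fell by 1.85 (adjusted p = 0.0475) with all tumours and by 0.49 (adjusted p = 0.0204) without HR1 replicate 1. The LM1 call was lost without any of the 6 LM tumours (adjusted p = 0.0718 to 0.124), with library size only (-1.73, adjusted p = 0.0508), with limma-voom (-1.33, adjusted p = 0.0999), with its quality weights (-0.61, adjusted p = 0.103) and with only the HR1 and LM1 tumours fitted (-1.86, adjusted p = 0.109). LM9 versus HR1 was not called (-1.47, adjusted p = 0.0858), but passed without HR1 replicate 2 (-1.89, adjusted p = 0.024) or 3 (-1.82, adjusted p = 0.0435). Without HR1 replicate 1 it was -0.11 (adjusted p = 0.555). LM9 exceeded LM1 by 0.38 (adjusted p = 0.682), by 0.38 (adjusted p = 0.0443) without HR1 replicate 1, and by 0.37 (adjusted p = 0.011) with the 6 LM tumours alone. The summed level of 10 fibroblast markers was also highest in HR1 replicate 1, at 35302 CPM, against 22656 and 23196 CPM in the other HR1 tumours, 10433 to 13848 CPM in LM1 and 8974 to 10537 CPM in LM9. In 6 of the 10 markers HR1 replicate 1 was the highest HR1 tumour, by the most CPM in *Dcn* (17605, 432 and 329 CPM in HR1) and also in *Col1a1*, *Lum*, *Pdgfra*, *Pdgfrb* and *Fap*, while *Col1a2* (44.2, 1472 and 2725 CPM), *Col3a1* (3338, 12048 and 7920 CPM) and *Acta2* (95.7, 606 and 327 CPM) were lowest in that tumour among the HR1 tumours. Of the 10 markers 9 were lower in LM tumours, and 7 without HR1 replicate 1, and their part in the *Serpinf1* difference was not tested. *Kctd1* (r = 0.989), *Tspan5* (r = 0.987) and *Rilp* (r = 0.978) were most like *Serpinf1*.

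*Serpinh1* (chr7:99345376-99353239, minus strand), which encodes the collagen chaperone HSP47, was not called with all 9 tumours. It held 4769.8, 2657 and 2846 CPM in HR1, 3451, 3386 and 3949 CPM in LM1, and 2661, 2780 and 2507 CPM in LM9. LM1 was above LM9 in every tumour, HR1 replicate 1 was the highest of all 9 tumours, and LM9 replicate 3 was below every HR1 tumour. LM1 and LM9 together differed from HR1 by -0.15 (95% interval -0.59 to 0.29, adjusted p = 0.556), and by 0.17 (adjusted p = 0.216) without HR1 replicate 1. Without HR1 replicate 1 LM1 exceeded HR1 by 0.39 (adjusted p = 0.0233) and LM9 differed from LM1 by -0.45 (adjusted p = 0.00925). With the 6 LM tumours alone the latter was -0.45 (adjusted p = 0.00443). *Czib* (r = 0.986), *Fadd* (r = 0.968) and *Cnih1* (r = 0.968) were most like it.

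All 23 genes listed as partners of *Serpinh1* in collagen folding and processing were analysed, of which 3 rose and 9 fell in LM1 and LM9 together versus HR1 (52.2% called, median -0.13), or 6 and 10 without HR1 replicate 1 (69.6% called, median -0.25). In the same comparison 9 of the 10 fibroblast markers fell (median -1.88), or 7 without HR1 replicate 1 (median -1.33), and their part in the collagen genes was not tested. *Lox*, the enzyme that crosslinks collagen, fell by 3.06 on the log2 scale (adjusted p = 0.0055), from 2.13, 26.3 and 5.07 CPM in HR1 to at most 2.06 CPM in the LM tumours, or -1.43 (adjusted p = 0.0198) without HR1 replicate 2. *P3h3* and *P3h4*, of the collagen prolyl 3-hydroxylase family, fell by 1.37 (adjusted p = 7.2e-04) and 1.60 (adjusted p = 8.7e-04). *P3h3* fell in LM1 (-2.18) and was not called in LM9 (-0.56, adjusted p = 0.074). *Loxl2* had a log2 fold change of -2.36 (adjusted p = 0.049), and of 0.15 (adjusted p = 0.84) without HR1 replicate 3, the only tumour above 1.31 CPM, at 10.8 CPM. The call was also lost without any 1 of the LM tumours (adjusted p = 0.0813 to 0.102).

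Compared per kilobase of exon, the levels of the 7 genes spanned a wide range and their order changed between models. *Serpinh1* (1402, 1472 and 1084 CPM per kb in HR1, LM1 and LM9) and *Serpinf1* (1143, 317 and 413 CPM per kb) were the most abundant in each model. *Slpi* had 5.79 CPM per kb in HR1, below *Plau* (69.5), *Plat* (57.7) and *Plaur* (29.5). In LM1 it had 93.6 CPM per kb, above *Plau* (57.9), *Plat* (49.1) and *Plaur* (38.2), and in LM9 143 CPM per kb, above *Plat* (71.8), *Plaur* (40.1) and *Plau* (38.8). *Serpine2* was the lowest in each model, with 0.569, 4.19 and 0.550 CPM per kb. The HR1 means of *Slpi* and *Serpinf1* were 2.15 and 446 CPM per kb without HR1 replicate 1, and the order of the 7 genes in HR1 did not change.

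Of 25 further genes of the plasminogen system (inhibitors, substrates and receptors) 16 were analysed, of which 2 rose and 4 fell in LM1 and LM9 together versus HR1 (37.5% called, median -0.21). There were 4 that rose and 4 that fell without HR1 replicate 1 (50.0% called), and the median turned to 0.074. *Anxa2*, which with *S100a10* forms a plasminogen receptor, held 2406, 1896 and 2134 CPM in HR1, 3265, 3009 and 3466 CPM in LM1 and 2395, 2870 and 2571 CPM in LM9, a rise of 0.44 (adjusted p = 0.0238) that was not called without any of 6 of the tumours in turn (adjusted p = 0.0502 to 0.0715). With all 9 tumours *Anxa2* was called higher in LM1 versus HR1 but was not called in LM9 versus HR1. *S100a10* was not called (0.11, adjusted p = 0.831) but rose by 0.85 (adjusted p = 0.00218) without HR1 replicate 1. *Lrp1*, the endocytic receptor that clears activator and serpin complexes, was not called (-0.25, adjusted p = 0.284).

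The 4 genes that fell were *Itgb5*, *Itgb3*, *Serping1* and *Igf2r*. *Itgb5*, the integrin beta 5 chain, fell by 2.92 (adjusted p = 1.1e-04), from 193, 504 and 486 CPM in HR1 to 45.6 to 60.3 CPM in the LM tumours. *Itgb3*, the integrin beta 3 chain, fell by 5.68 (adjusted p = 0.0016), from 0.964, 41.7 and 11.4 CPM in HR1 to at most 1.32 CPM, although HR1 replicate 1 lay among the LM tumours, with a log2 fold change of -4.14 (adjusted p = 0.00456) without HR1 replicate 2. *Serping1*, which encodes the C1 inhibitor, fell by 4.63 (adjusted p = 6.1e-04), from 57.7, 6.57 and 12.5 CPM to at most 1.27 CPM, with a log2 fold change of -3.20 (adjusted p = 2.5e-05) without HR1 replicate 1. *Igf2r*, which binds the urokinase receptor, was low in LM1 (31.1 to 43.5 CPM) and not called in LM9 (98.5 to 113 CPM) against HR1 (53.2, 225 and 131 CPM). Its fall in the pooled comparison was not called without HR1 replicate 2 (-0.59, adjusted p = 0.149) or any of 5 other tumours (adjusted p = 0.0517 to 0.0585), and LM9 versus HR1 was called without HR1 replicate 1 (-0.78, adjusted p = 0.0126).

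**Figure D3:**
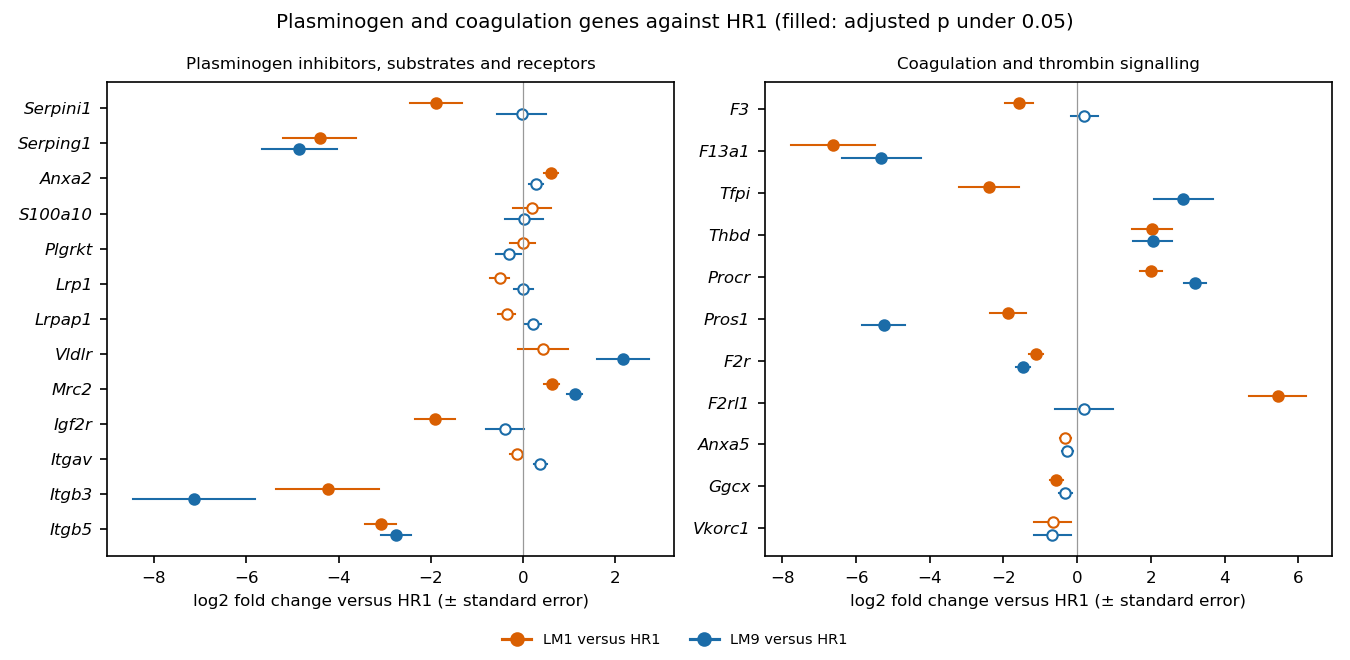
Log2 fold changes ± standard error versus HR1 for LM1 (orange) and LM9 (blue) from edgeR with all 9 tumours, for 13 plasminogen genes and 11 coagulation genes that average 1 CPM or more and pass 3 counts in some tumour of each model. Filled points have an adjusted p under 0.05; *Tfpi* lies on opposite sides of 0 in the models, and *Thbd* and *Procr* lie right of 0 in both.

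Of 28 genes of coagulation and thrombin signalling 17 were analysed, of which 4 rose and 6 fell in LM1 and LM9 together versus HR1 (58.8% called, median -0.30), or 5 and 7 without HR1 replicate 1 (70.6% called, median -0.16). *Thbd*, which encodes the thrombin receptor thrombomodulin, held 59.6, 14.7 and 12.5 CPM in HR1, 112, 118 and 124 CPM in LM1, and 121, 109 and 129 CPM in LM9. All LM tumours were above all HR1 tumours, and the rise was 2.04 (s.e. 0.49, adjusted p = 0.0105), or 3.13 (adjusted p = 2.8e-07) without HR1 replicate 1. *Procr*, named after its values were seen, encodes the receptor of protein C and rose by 2.60 (adjusted p = 2.6e-04), from 10.3, 24.7 and 23.9 CPM to 73.1 to 194 CPM. *Pros1*, the protein S cofactor of protein C, moved the other way and fell by 3.57 (adjusted p = 3.7e-04), or -2.77 (adjusted p = 1.5e-05) without HR1 replicate 1.

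*Tfpi*, the inhibitor of the tissue factor pathway, held 0.399, 3.83 and 0.643 CPM in HR1, 0.315, 0.159 and 0.457 CPM in LM1, and 13.4, 13.6 and 9.32 CPM in LM9. It fell in LM1 (-2.39, adjusted p = 0.0499) and rose in LM9 (2.88, adjusted p = 0.0193). The fall was not called without HR1 replicate 2 (-0.76, adjusted p = 0.242) or any LM tumour (adjusted p = 0.0729 to 0.15), and the rise was 4.52 without HR1 replicate 2 and not called without LM9 replicate 1 or 2 (adjusted p = 0.0548 and 0.0534). *Tfpi2*, a related inhibitor that also acts on plasmin and was named after its values were seen, had 7.56, 7.66 and 8.84 CPM in LM1, at most 0.495 CPM in HR1 and at most 3 counts in each LM9 tumour. Tissue factor itself, *F3*, was lower in LM1 (1.51, 2.04 and 1.37 CPM) than in LM9 (5.52, 5.70 and 5.54 CPM), with LM9 versus LM1 at 1.76 (adjusted p = 0.014), not called without LM1 replicate 1 or 3 or LM9 replicate 1 or 2 (adjusted p = 0.0509 to 0.0667). HR1 held 2.59, 7.07 and 4.94 CPM of *F3*, a range that holds the LM9 tumours and lies above the LM1 tumours. *F7* stayed at 2 counts or fewer in every HR1 tumour and reached 0.294 to 0.634 CPM in LM1 and 2.73 to 4.50 CPM in LM9. *F13a1*, the transglutaminase that crosslinks fibrin, fell by 5.97 (adjusted p = 7.8e-04), from 486, 107 and 17.0 CPM to 1.74 to 7.60 CPM, or -4.25 (adjusted p = 2.7e-04) without HR1 replicate 1.

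*Slpi* and *Serpine2* have been tied to vascular mimicry, in which tumour cells express endothelial genes, and 18 of 20 genes of that list were analysed. In LM1 and LM9 together versus HR1, 4 rose and 3 fell (38.9% called, median 0.33), or 6 and 5 without HR1 replicate 1 (61.1% called, median 0.098). *Cdh5*, which encodes VE-cadherin, held 3.23, 13.4 and 1.88 CPM in HR1, 147, 190.3 and 136 CPM in LM1, and 232, 254 and 228 CPM in LM9. *Kdr*, which encodes VEGFR2, held 0.432, 1.73 and 1.13 CPM in HR1, 22.3, 34.0 and 25.1 CPM in LM1, and 37.3, 35.8 and 23.3 CPM in LM9. Both rose without overlap, by 4.96 (s.e. 0.66, adjusted p = 6.7e-04) and 4.72 (s.e. 0.45, adjusted p = 1.5e-04), and *Cdh5* by 6.25 without HR1 replicate 2.

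The other endothelial markers did not rise with them. *Pecam1* held 2.23, 6.42 and 1.18 CPM in HR1 and at most 1.25 CPM in the LM tumours, and fell by 2.22 (adjusted p = 0.00908), which was not called without HR1 replicate 2 (-1.28, adjusted p = 0.0506). *Emcn*, *Vwf*, *Cldn5* and *Esam*, all of the endothelial marker list, were also lower and did not exceed 0.984 CPM in any LM tumour. Of the 7 endothelial markers analysed, 2 rose and 5 fell, so the summed level of 164 to 291 CPM in LM tumours against 6.33 to 29.6 CPM in HR1 was almost all *Cdh5* and *Kdr*. *Mmp2*, a gelatinase named in vascular mimicry, fell by 3.60 (adjusted p = 4.5e-04), from 2233, 658 and 511 CPM in HR1 to 30.3, 30.1 and 35.1 CPM in LM1 and 379, 251 and 192 CPM in LM9, or -2.64 without HR1 replicate 1.

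**Figure D4:**
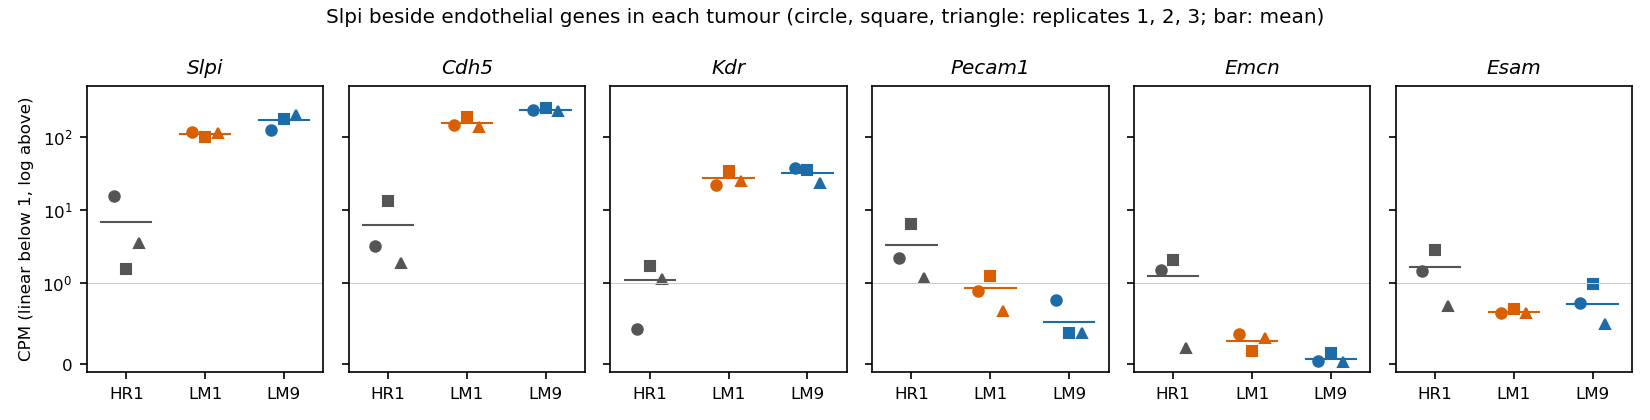
CPM of *Slpi* and of 5 endothelial genes in each tumour, on an axis that is linear below 1 CPM and logarithmic above. *Slpi*, *Cdh5* and *Kdr* are higher in all 6 LM tumours than in all HR1 tumours, whereas *Pecam1*, *Emcn* and *Esam* stay at or below 1.25 CPM in the LM tumours.

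Among the 24 serpin genes analysed, *Serpine2*, *Serpinf1* and *Serpinh1* included, 2 rose and 8 fell in LM1 and LM9 together versus HR1 (41.7% called, median -0.56), or 4 and 10 without HR1 replicate 1 (58.3% called, median -0.19). *Serpina3n* held 1.03, 32.8 and 49.1 CPM in HR1 and at most 1.37 CPM in the LM tumours (-5.31, adjusted p = 0.0015, or -4.60 without HR1 replicate 3). *Serpinb9b* held 0.266, 123 and 31.3 CPM in HR1 and 2.13 to 6.28 CPM in the LM tumours (-3.88, adjusted p = 0.0163), and the call was lost without HR1 replicate 2 (-2.17, adjusted p = 0.119). HR1 replicate 1 lay among the LM tumours for *Serpina3n* and below all of them for *Serpinb9b*. *Serpinb7* stayed at 2 counts or fewer in each HR1 tumour and reached 3.68, 3.85 and 5.79 CPM in LM1. The *Serpina3* and *Serpinb9* families have near-identical copies between which reads can be split, so their values are uncertain.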

How the data were processed

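The series holds RNA-seq of sorted GFP+ cells from 9 tumours, and groups and replicate numbers were taken from the sample labels. The deposited files hold whole-number counts per gene, which the authors made by aligning reads to mm10 with STAR and counting 5′ ends over the union of each gene's exons with qCount of QuasR. Tool versions and the strand setting of the counts are not given in the sources used here. Reads without molecular identifiers cannot be told from PCR copies, so floors cover counting error only. Every listed gene has 7 or more counts in at least 3 tumours, and 14085 of 14108 were matched to a symbol through RefSeq by Entrez identifier. Gene positions and exon lengths are from GENCODE vM21 (GRCm38, the same assembly as mm10).

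Counts were normalized by TMM, filtered with filterByExpr and tested with the robust quasi-likelihood F-test of edgeR 4.0.16 in R 4.3.3, in 1 fit of the 3 groups without covariates, where the study's methods name limma-voom. Benjamini-Hochberg adjustment was applied across every gene tested, and calls were made under 0.05. For the members, exact permutation tests of CPM were run in scipy 1.17.1 under Python 3.11.15 (smallest p 0.0238 for 6 against 3 tumours and 0.1 for 3 against 3). The alternatives were RLE factors, library size only, no filter or 1 CPM in 3 tumours, DESeq2 1.42.0, limma-voom 3.58.1 with and without quality weights, the replicate number as a block, only the tumours compared, and each tumour left out. No tumours of a model had counts within sampling noise of each other (chi-square per degree of freedom at least 31.6). Deviations of same-numbered tumours correlated at -0.106 to 0.342, so the numbers were not taken as pairs.

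The members and gene lists were chosen with earlier results of these data known. Named genes are the members, 11 core partners of which 9 were analysed (an item among them is not reported here), and up to 4 genes per list with the largest called change of LM1 and LM9 together at a mean of at least 1 CPM. Likeness was Pearson's r of log2(CPM + 1) over 9 tumours among genes averaging 5 CPM or more, 3 per member. Promoter letters are RefSeq's. In simulated counts for LM1 and LM9 together versus HR1 (13917 genes), edgeR recovered 26% of 2-fold and 76% of 4-fold changes with 0.971% false calls. The simulated spread of a gene was the same in all groups, and 100 genes were changed at each fold size. In the data the HR1 tumours varied more than the LM tumours, and 43.6% of genes were called.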

Additional observations from a re-analysis of the deposited data

Results flagged for a closer look

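Several genes of these systems differed between the metastasis-derived models in the direct test of LM9 against LM1 (edgeR, adjusted p under 0.05, all 9 tumours), which is the test of whether their changes against the shared HR1 tumours differ. *Serpine2* was the only one of the 7 members, with a log2 fold change of -2.93 (adjusted p = 0.0304).

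Against 22.0% of all tested genes, the calls were 5 higher in LM9 and 0 lower among 16 plasminogen genes (31.2%), 4 and 4 among 17 coagulation genes (47.1%), 4 and 1 among 23 collagen genes (21.7%), 3 and 1 among 18 vascular mimicry genes (22.2%), 2 and 5 among 24 serpins (29.2%), 1 and 1 among 11 relatives and targets of *Slpi* (18.2%), and 1 and 0 among 13 membrane and secreted proteases and Kunitz inhibitors (7.69%). Without HR1 replicate 1, against 45.5% of all tested genes, these became 9 and 2 (68.8%), 4 and 5 (52.9%), 5 and 2 (30.4%), 6 and 2 (44.4%), 3 and 9 (50.0%), 2 and 2 (36.4%), and 2 and 3 (38.5%), in the same order of lists. Of the partners named by the rule or in the results, those higher in LM9 included *Tfpi* by 5.28 (adjusted p = 0.00585), *Mmp2* by 3.10 (adjusted p = 0.00699), *F7* by 2.83 (adjusted p = 0.0172), *Serpini1* by 1.86 (adjusted p = 0.0442), *F3* by 1.76 (adjusted p = 0.014), *P3h3* by 1.62 (adjusted p = 0.00282), *Igf2r* by 1.51 (adjusted p = 0.0359) and *Htra3* by 1.01 (adjusted p = 0.0391). Those lower in LM9 included *Serpinb7*, with a log2 fold change of -3.43 (adjusted p = 0.00497), *Pros1*, with -3.37 (adjusted p = 0.00436), and *P3h4*, with -1.13 (adjusted p = 0.0216). *F5*, coagulation factor V, had 0, 0 and 1 counts in LM9 and 1.11, 2.40 and 1.70 CPM in LM1 (adjusted p = 0.0174), and against a floor of 3 counts per tumour its level in LM9 was at least 26.0-fold lower, a log2 value of -4.70. *F7* stayed at 2 counts or fewer in HR1, so no fold of it against HR1 is given. Leaving out 1 tumour ended the call for *Serpine2*, *Serpini1*, *F3*, *Igf2r*, *F5*, *F7*, *Htra3* and *P3h4* in at least 1 case each, and for none of *Tfpi*, *Mmp2*, *P3h3*, *Pros1* and *Serpinb7*.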

How the results depend on the processing

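Over 18 settings, 421 of 497 alternative fold changes of the 7 genes kept their direction and side of the threshold, 32 lost the call, 31 gained it and 13 changed sign. *Slpi* kept its call against HR1 under every setting run for the 3 comparisons with HR1. The cause of the changes below was not tested, except that leaving out a tumour or fitting only the tumours compared changes which tumours set the spread.

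For LM1 and LM9 together, whose fit already holds all 9 tumours, the calls among the 7 genes were 1 with the replicate block (37.2% of all tested genes) and 1 to 3 with 1 tumour left out (35.0% to 56.0%). *Serpine2* passed with DESeq2 (1.41) and limma-voom (2.06), and was 0.88 to 2.49 with 1 tumour left out. *Serpinf1* lost its call with limma-voom (-1.14) and with quality weights (-0.44), where *Plau* gained one (-0.85). *Serpinh1* was 0.085 with quality weights and -0.30 to 0.17 with 1 tumour left out, and *Plat* -0.12 to 0.21. In LM1 versus HR1 the calls were 1 with only the tumours compared (22.0%), where *Serpine2* (2.86) and *Serpinf1* (-1.86, adjusted p = 0.109) lost their calls, and 1 to 5 with 1 tumour left out (22.1% to 52.8%). *Serpinf1* also lost it with library size only (-1.73), limma-voom (-1.33) and quality weights (-0.61). With 1 tumour left out *Serpine2* was 2.35 to 3.95, *Serpinh1* -0.082 to 0.39 and *Plau* -0.70 to 0.16, and *Plau* was 0.047 with limma-voom. In LM9 versus HR1 the calls were 2 with DESeq2 (47.3%), which added *Serpinf1*, 3 with quality weights (46.1%), which added *Plau* and *Plat*, and 1 to 3 with 1 tumour left out (26.7% to 55.7%). *Serpine2* was 0.60 with limma-voom, 0.34 with the replicate block and -0.59 to 1.02 with 1 tumour left out. In LM9 versus LM1 the calls were 2 with DESeq2 (30.6%), 2 with limma-voom (24.6%), *Plat* being the added gene in both, 5 with quality weights (61.5%), 6 with only the tumours compared (56.3%) and 0 to 5 with 1 tumour left out (8.16% to 45.5%). *Slpi* passed there with quality weights (0.60) and only the tumours compared (0.60), *Serpine2* was -3.09 to -2.83 and *Plaur* -0.090 to 0.14 with 1 tumour left out.

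The labels give same-numbered tumours nothing in common but a number. Their largest correlation of deviations, 0.342, was between replicate 3 of LM1 and replicate 3 of LM9, and a shared batch was not tested. With the replicate block *Serpinf1* lost both of its calls against HR1 (adjusted p = 0.0905 together and 0.105 in LM1) and no other call of the 7 genes changed. DESeq2 made 26.2% false calls in the simulation for the pooled comparison, and edgeR recovered 26% of 2-fold changes there, which limits what 3 tumours a model can show. These rates hold for a spread shared by all groups and were not measured for the wider spread of the HR1 tumours.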

Other observations

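Of 18 membrane serine proteases, secreted proteases and Kunitz inhibitors, 13 were analysed, of which 3 rose (*Tmprss2*, *Prss22* and *Spint1*, named after their values were seen) and 3 fell in LM1 and LM9 together versus HR1 (46.2% called), or 4 and 2 without HR1 replicate 1 (46.2% called). All 3 that rose had at most 3 counts in each HR1 tumour. *Htra1*, a secreted protease that degrades matrix, fell by 1.42 on the log2 scale (adjusted p = 2.5e-04), from 2338, 1468 and 1630.4 CPM in HR1 to 649 to 707 CPM in the LM tumours, without overlap. *Fap*, a surface protease of activated fibroblasts, held 48.1, 6.96 and 1.80 CPM in HR1, 5.19 to 5.56 CPM in LM1 and 1.04 to 1.78 CPM in LM9. Its fall of 2.79 (adjusted p = 0.0176) was not called without HR1 replicate 1 (-0.67, adjusted p = 0.189). *Plscr4*, a membrane phospholipid scramblase, fell by 2.22 (adjusted p = 0.0114), and by 0.84 (adjusted p = 0.0224) without HR1 replicate 1.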
